A study of Mus musculus with 119 samples.

Results

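Tnf encodes TNF, a cytokine that macrophages make within minutes of sensing bacterial products. The gene was taken as 1 row of the 18098 genes in the deposited table and followed across all RNA-seq libraries of the series, made from mouse bone marrow-derived macrophages (BMDMs). All BMDMs came from C57BL/6(NIMR) mice, and LPS, the bacterial ligand of TLR4, was used at 100 ng/ml for 0.5, 1 or 2 h. The question was how Tnf mRNA responds to LPS when the TPL-2 kinase, or a step above or below it, is blocked.

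The libraries fall into arms by genotype and inhibitor. WT cells had 22 libraries, with 6 each unstimulated and at 0.5 and 1 h and 4 at 2 h. Map3k8[D270A] cells carry a TPL-2 (encoded by Map3k8) without catalytic activity and had 6 libraries at each of the 4 times. Elk1-/-Elk4-/- cells lack the ETS-family ternary complex factors Elk1 and Elk4 and had 4 libraries at each time. Nfkb1[SS/AA] cells carry an Nfkb1 p105 that cannot be degraded on signal, so that TPL-2 is not released, and had 6 libraries unstimulated and at 0.5 and 1 h. WT cells were also treated with 0.1 µM PD0325901, an inhibitor of the kinases MKK1/2 that activate ERK1/2. PD0325901 was given for 10 min before LPS for 0.5 or 1 h (6 libraries each), or without LPS for 10, 40 or 70 min (3 libraries each), with 3 libraries of DMSO for 10 min. The last arm was WT cells with 2 µM RSKi47, an inhibitor of the RSK kinases downstream of ERK1/2, given for 10 min before LPS (4 libraries at 0, 1 and 2 h, 3 at 0.5 h). No library analysed here combined DMSO with LPS, and Nfkb1[SS/AA] and PD0325901 were analysed with LPS at 0.5 and 1 h only. By their labels, the Elk1-/-Elk4-/-, Nfkb1[SS/AA], PD0325901 and RSKi47 libraries belong to other experiments than the WT libraries, so for these arms genotype or treatment and experiment cannot be told apart.

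In resting macrophages Tnf is transcribed at a low rate, its promoter is kept open, and NF-κB switches transcription on within minutes of TLR4 engagement. Its mRNA is short-lived because an AU-rich element in the 3′ UTR binds decay proteins such as tristetraprolin (Zfp36). The TNF protein is made as a membrane form that the protease ADAM17 cuts free. TPL-2 activates MKK1/2 and ERK1/2 and is known for acting on TNF output mainly after transcription, at mRNA transport and protein processing, which these libraries do not measure.

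Tnf lies on chromosome 17 of the mouse genome (GRCm38, the build also called mm10; minus strand, chr17:35199381-35202007 in GENCODE M21), and its main transcript has 4 exons and 1639 bases. The 250 bases before the transcription start are shown because Elk1 and Elk4, ETS-family factors, are among the proteins removed here. They are from RefSeq (GRCm38.p6, chr17:35202008-35202257, minus strand, 5′ to 3′), with matches to the motifs searched in capitals.
Tnf promoter: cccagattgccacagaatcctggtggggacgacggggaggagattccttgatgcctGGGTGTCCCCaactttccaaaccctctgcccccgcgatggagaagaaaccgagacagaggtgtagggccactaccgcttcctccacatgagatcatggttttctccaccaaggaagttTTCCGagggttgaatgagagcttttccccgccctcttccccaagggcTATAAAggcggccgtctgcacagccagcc
Both strands were searched for 8 motifs. The window holds 1 TATA box (TATAAA), ending 24 bases before the start and present in 12.4% of 32841 promoter windows of the same length. It holds 1 stretch of the κB form (GGG, 5 bases of any kind, CC; 45.8% of windows) and 1 ETS core CGGAA on the opposite strand, from position -76 to -72 (25.2%). The longer ETS core CCGGAAG (6.91% of windows), the AP-1 form TGANTCA (6.75%), the CRE TGACGTCA (1.55%), the EGR form GCGNGGGCG (4.7%) and the CArG box bound by SRF, the partner of Elk1 and Elk4 (1.47%), had no match in these letters.

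The AU-rich element is shown because the mRNA level measured here is also set by decay. In the 764 bases of the 3′ UTR, ATTTA occurs 8 times, and 5 of these lie in the 30 bases below (chr17:35199679-35199708, minus strand, 5′ to 3′, exon 4, ATTTA in capitals, transcript sequence from GENCODE M21 written with T).
Tnf AU-rich element: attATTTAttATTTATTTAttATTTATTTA
At least as many ATTTA copies were present in 6 of 1580 genes whose 3′ UTR is within 100 bases of this length (0.38%), a count from which Tnf itself was not left out.

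All values are on the log2 scale of the deposited table, in which a difference of 1 is 2-fold. The scale may draw differences together, since the sources used here do not name the transformation, and no counts were used, so the depth behind each library's values is unknown. The labels do not say whether replicates are separate mice, so a p-value measures the spread between libraries only. In limma that spread is 1 value per gene, shared by all groups of a fit. For Tnf the SD within groups ran from 0.0061 (PD0325901 for 10 min) to 0.44 (WT at 0.5 h). An SE can thus be smaller or larger than the groups compared would give alone. Macrophage markers were high in every library, from Mertk (at least 9.48) to Lyz2 (at least 17.5), while markers of other cells were mixed. Ly6g stayed at or below 0.60, but among the other neutrophil markers S100a9 reached 9.75, S100a8 8.48 and Camp 4.62, and the fibroblast marker Col1a1 reached 9.03. The libraries farthest from the rest of their group over all genes were Nfkb1[SS/AA] replicate 2 at 1 h (root mean square difference 0.310), the 6 Map3k8[D270A] libraries at 2 h (0.263 to 0.303) and RSKi47 replicate 4 (0.231 to 0.299 at 0, 1 and 2 h). Egr1, an immediate-early gene switched on through ERK1/2 and Elk factors, served as the check of the blocks at or above Elk1 and Elk4. RSKi47 acts below ERK1/2, so Egr1 is no check of it, and the RSK block was not checked here. The mutated genes' own mRNA does not check a point mutation. Map3k8 differed from WT in Map3k8[D270A] cells by -0.096, -0.25, 0.0082 and -0.31 at 0, 0.5, 1 and 2 h (adjusted p = 0.498, 0.00383, 0.954 and 4.61e-05 in limma). Nfkb1 differed in Nfkb1[SS/AA] cells by 0.016, 0.015 and -0.047 at 0, 0.5 and 1 h (lowest adjusted p = 0.501).

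LPS raised Tnf in WT cells to a peak at 1 h. The unstimulated libraries read 11.49, 11.50, 11.51, 11.58, 11.57 and 11.59 in replicates 4 to 9. At 0.5 h the same replicates read 14.99, 14.90, 14.97, 15.76, 15.61 and 15.87. At 1 h they read 16.29, 16.36, 16.37, 16.12, 16.17 and 16.26, and at 2 h replicates 4 to 7 read 15.29, 15.20, 15.18 and 15.23. No stimulated library came within 3.31 of the unstimulated ones, and the times did not overlap except 0.5 h with 2 h. Tnf rose by 3.81 (SE 0.0951) at 0.5 h, 4.72 (SE 0.0951) at 1 h and 3.68 (SE 0.106) at 2 h, or 14.0-fold, 26.4-fold and 12.8-fold on this scale. The adjusted p values in limma were 1.06e-37, 2.28e-42 and 1.18e-35. These calls stand beside backgrounds of 11.6%, 46.8% and 71.5% of the 11884 genes tested that passed in either direction. Tnf was near the top of the ranking, with 3 genes rising more at 0.5 h, 11 at 1 h and 77 at 2 h. From 0.5 to 1 h it rose by a further 0.91 (SE 0.0951, adjusted p = 5.44e-12, background 40.3%), and from 1 to 2 h it changed by -1.04 (SE 0.106, adjusted p = 1.43e-12, background 65.3%).

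The WT libraries formed 2 sets, replicates 4 to 6 and 7 to 9, that did not overlap without LPS, at 0.5 h or at 1 h, and stood farthest apart at 0.5 h. At that time replicates 4 to 6 had a mean of 14.95 and replicates 7 to 9 a mean of 15.75, a difference of 0.79 (SE 0.0730, limma adjusted p = 1.92e-11, background 23.2%), with 51 genes differing more in this direction. Without LPS the same sets differed by 0.082 (SE 0.0730, adjusted p = 0.482, background 14.2%), at 1 h by -0.15 (adjusted p = 0.126, background 21.4%). The labels do not name these sets as batches. All 5 comparisons with WT at 0.5 h rest on which set is used, so each is given below with both.

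**Figure D1:**
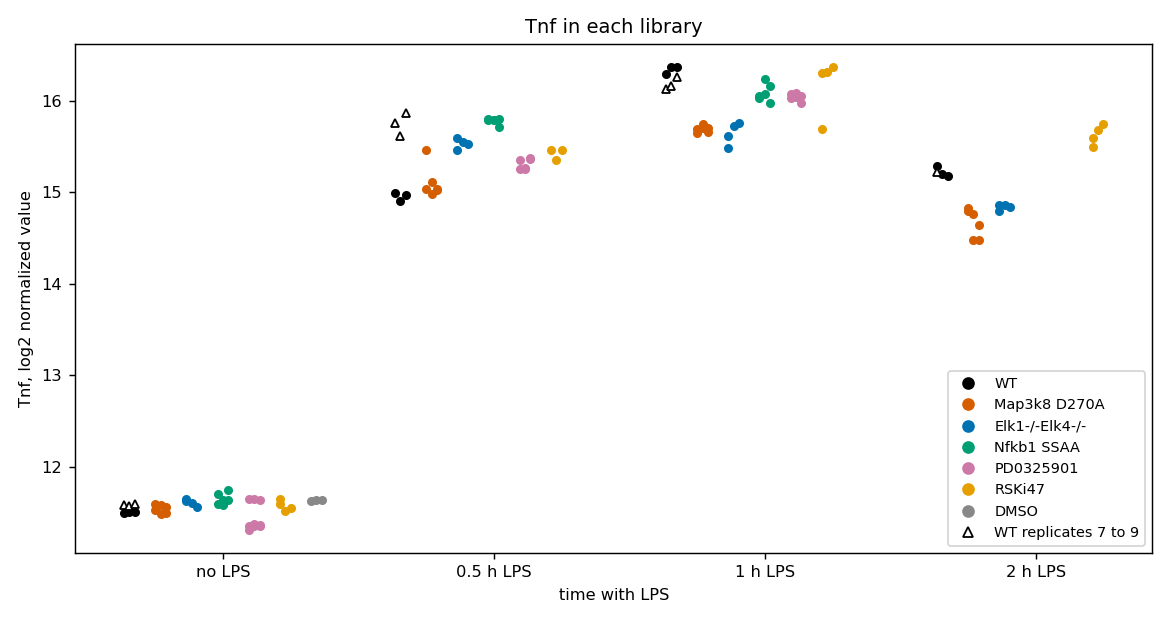
Tnf (log2 normalized value) in each library by time with LPS and arm, each point 1 library, with WT replicates 7 to 9 as open triangles. The points with LPS lie at 14.47 or above and those without at 11.74 or below, and the WT points at 0.5 h split between 14.90 to 14.99 and 15.61 to 15.87.

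Ordered by mean, the 25 groups ran from 16.26 ± 0.10 (SD, n = 6) in WT at 1 h to 11.34 ± 0.03 (SD, n = 3) with PD0325901 for 40 min. The 1 h groups of RSKi47 (16.17 ± 0.32, n = 4), Nfkb1[SS/AA] (16.09 ± 0.09, n = 6) and PD0325901 (16.04 ± 0.04, n = 6) followed WT. Map3k8[D270A] (15.69 ± 0.04, n = 6) and Elk1-/-Elk4-/- (15.64 ± 0.12, n = 4) at 1 h stood next to each other below Nfkb1[SS/AA] at 0.5 h (15.78 ± 0.03, n = 6). The lowest stimulated group was Map3k8[D270A] at 2 h (14.66 ± 0.16, n = 6), and the gap from it to the highest group without LPS was 3.01. Of the 24 pairs of neighbours in this order, 15 differed by less than the larger of their SDs, among them WT and RSKi47 at 1 h, Map3k8[D270A] and Elk1-/-Elk4-/- at 1 h, and RSKi47, WT and Map3k8[D270A] without LPS.

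Loss of TPL-2 catalytic activity left Tnf strongly inducible but at a lower level from 1 h on. Unstimulated Map3k8[D270A] libraries ranged from 11.48 to 11.59 with a median of 11.55, overlapping WT, and the difference was 0.00 in size (-0.000773, SE 0.0951, limma adjusted p = 0.999, background 1.44%). At 1 h replicates 1 to 6 read 15.64, 15.75, 15.70, 15.69, 15.70 and 15.65, all below the lowest WT library (16.12). The difference was -0.57 (95% interval -0.76 to -0.38, SE 0.0951, adjusted p = 1.54e-05, background 9.79%), or 0.673 of the WT level. The exact two-sided permutation test gave p = 0.00216, the smallest that 6 against 6 allows. At 2 h they read 14.80, 14.76, 14.64, 14.82, 14.48 and 14.47, again all below WT, with a difference of -0.56 (95% interval -0.77 to -0.35, SE 0.106, adjusted p = 3.82e-05, background 27.7%). In the same libraries Egr1 changed by -3.24 (SE 0.135) at 1 h and -1.81 (SE 0.151) at 2 h against WT, with adjusted p of 4.65e-26 and 3.28e-14. The Map3k8[D270A] libraries at 2 h were not alike over all genes. Replicates 4 to 6 differed there from replicates 1 to 3 in Tnf by -0.14 (SE 0.0730, limma adjusted p = 0.118, background 40.9%).

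At 0.5 h, when Egr1 differed most (-4.41, SE 0.135, adjusted p = 1.13e-32), the Tnf difference in Map3k8[D270A] cells did not pass the test. The libraries read 15.04, 14.98, 15.04, 15.47, 15.11 and 15.02, inside the WT range, and the difference was -0.24 (SE 0.0951, adjusted p = 0.266, background 1.37%). With all 6 Map3k8[D270A] libraries it was 0.15 against WT replicates 4 to 6 (adjusted p = 0.189) and -0.64 against WT replicates 7 to 9 (adjusted p = 1.42e-08). No label ties a set of Map3k8[D270A] replicates to a set of WT replicates. With Map3k8[D270A] replicates 1 to 3 set against WT replicates 4 to 6, the difference was 0.063 (adjusted p = 0.591), and with replicates 4 to 6 set against WT replicates 7 to 9 it was -0.55 (adjusted p = 7.84e-05). The difference between these 2 values was itself -0.61 (SE 0.103, adjusted p = 0.000162, background 0.791%), and with the sets matched the other way it was -0.97 (SE 0.103, adjusted p = 1.00e-09, background 30.4%). At 1 and 2 h the differences between sets under the first matching were 0.14 (adjusted p = 0.692, background 0.513%) and -0.14 (adjusted p = 0.566, background 8.06%), with 1 WT library in the second set at 2 h.

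Read as induction from its own baseline, Tnf in Map3k8[D270A] cells rose by 3.57, 4.15 and 3.12 at 0.5, 1 and 2 h (backgrounds 5.08%, 41.9% and 69.5%). The induction differed from WT by -0.24 (adjusted p = 1.00, background 0.109%) at 0.5 h, -0.57 (SE 0.135, adjusted p = 0.00830, background 2.02%) at 1 h and -0.56 (SE 0.143, adjusted p = 0.00359, background 15.5%) at 2 h. At 1 h 86 of 11884 genes had a more negative difference. From 1 to 2 h Tnf changed by -1.03 in Map3k8[D270A] cells and by -1.04 in WT cells, and the interval of the difference between these steps ran from -0.28 to 0.30 (adjusted p = 0.981). Under quantile normalization the 1 h difference of induction was -0.38 and did not pass the test (adjusted p = 0.237), nor did the -0.44 found with 3 libraries a group, WT replicates 7 to 9 and Map3k8[D270A] replicates 4 to 6. With WT replicates 7 to 9 and all Map3k8[D270A] libraries it was -0.45 and passed (adjusted p = 0.0116), and the 0.5 h difference of induction, then -0.60, passed as well (adjusted p = 0.000202).

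In cells without Elk1 and Elk4, Tnf was induced by 0.5 h but lay below WT at 1 and 2 h. Their unstimulated libraries read 11.64, 11.61, 11.56 and 11.63, a difference from WT of 0.068 (SE 0.106, limma adjusted p = 0.615, background 51.8%). At 0.5 h they read 15.60, 15.55, 15.53 and 15.46, which fell between the 2 sets of WT libraries. The difference was 0.18 (SE 0.106, adjusted p = 0.160, background 44.4%), 0.58 against WT replicates 4 to 6 (adjusted p = 1.02e-11) and -0.21 against replicates 7 to 9 (adjusted p = 0.0377). It passed the test without WT replicate 7 or 9, at 0.26 and 0.29 (adjusted p = 0.0391 and 0.0180).

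At 1 h the Elk1-/-Elk4-/- libraries read 15.61, 15.72, 15.76 and 15.49, all below WT, and the difference was -0.62 (95% interval -0.83 to -0.41, SE 0.106, adjusted p = 2.93e-06, background 53.4%). At 2 h they read 14.80, 14.86, 14.83 and 14.86, also below WT, with a difference of -0.39 (SE 0.117, adjusted p = 0.00467, background 50.8%). The step from 0.5 to 1 h was 0.11 (95% interval -0.12 to 0.34, adjusted p = 0.559, background 27.5%), with overlapping libraries. The induction was lower than in WT by a difference of -0.69 (SE 0.150, adjusted p = 0.00576, background 1.35%) at 1 h and -0.45 (SE 0.158, adjusted p = 0.0379, background 16.9%) at 2 h. The first did not pass under quantile normalization (-0.47) or without Elk1-/-Elk4-/- replicate 4 (adjusted p = 0.0554), and the second lost its call without any 1 of the 4 Elk1-/-Elk4-/- replicates or WT replicate 4 (highest adjusted p = 0.110).

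In these libraries Elk1 changed by -2.76 to -3.07 and Elk4 by -2.01 to -2.47 against WT, and Egr1 by -0.97 without LPS and by -4.45, -4.04 and -2.55 at 0.5, 1 and 2 h. The summed level of 6 neutrophil markers was higher than in WT at every time, between 9.30 and 10.29 against 5.74 to 7.23, with Ly6g, Mpo and Elane near the floor of the scale unlike S100a8 and S100a9. The summed level of 4 dendritic cell markers, led by Itgax, which macrophages also express, was lower, between 9.75 and 10.19 against 10.48 to 11.96 in WT. Their part in the Tnf result was not tested, and fewer cells of a type and less RNA per cell cannot be told apart in such bulk samples.

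The Nfkb1[SS/AA] mutation, which holds TPL-2 in its complex with p105, did not lower Tnf beyond the test at any time. Unstimulated libraries ranged from 11.58 to 11.74 with a median of 11.63, a difference from WT of 0.11 (SE 0.0805, limma adjusted p = 0.326, background 32%). At 0.5 h 5 of the 6 libraries lay between 15.79 and 15.80 and replicate 3 at 15.71. They overlapped WT replicates 7 to 9 and lay above replicates 4 to 6. The difference was 0.43 (SE 0.0805, adjusted p = 8.94e-06, background 32.3%), but 0.83 against WT replicates 4 to 6 (adjusted p = 5.56e-19) and 0.036 against replicates 7 to 9 (adjusted p = 0.740). With the 2 groups compared alone in the fit its adjusted p was 0.0676.

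At 1 h the Nfkb1[SS/AA] libraries read 16.06, 16.23, 15.97, 16.03, 16.07 and 16.16, overlapping WT, with a difference of -0.17 (95% interval -0.33 to -0.014, SE 0.0805, adjusted p = 0.0724, background 42.5%). The exact two-sided permutation test of the same libraries gave p = 0.0152. Without replicate 2, the library farthest from its group, it was -0.20 (adjusted p = 0.0483), and without WT replicate 7 it was -0.20 (adjusted p = 0.0389). The induction differed from WT by 0.33 (adjusted p = 0.564, background 0.309%) at 0.5 h and -0.28 (SE 0.114, adjusted p = 0.146, background 6.07%) at 1 h, and the step from 0.5 to 1 h was 0.30 (SE 0.0805, adjusted p = 0.00102, background 42.6%). That step was 0.17 under quantile normalization and then did not pass. In the same libraries Egr1 differed from WT by -2.56 (SE 0.144) at 0.5 h and -3.06 (SE 0.144) at 1 h.

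With MKK1/2 blocked by PD0325901, Egr1 differed from WT by -4.48 at 0.5 h and -4.22 at 1 h (SE 0.144 each), and Tnf differed far less. At 0.5 h the Tnf libraries ranged from 15.25 to 15.38 with a median of 15.31, between the 2 sets of WT libraries, and the difference was -0.039 (95% interval -0.20 to 0.12, limma adjusted p = 0.753, background 29.4%). It was 0.36 against WT replicates 4 to 6 (adjusted p = 3.37e-06) and -0.44 against replicates 7 to 9 (adjusted p = 3.68e-06). At 1 h the 6 libraries lay between 15.97 and 16.08, just below the lowest WT library (16.12). The difference was -0.22 (95% interval -0.38 to -0.061, SE 0.0805, adjusted p = 0.0243, background 35.7%). It did not pass without WT replicate 6 (-0.20, adjusted p = 0.0502) or without PD0325901 replicate 3 (-0.21, adjusted p = 0.0554), nor under quantile normalization (-0.15) or with WT replicates 7 to 9 alone (-0.14).

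The baseline of Tnf was also measured at 3 times in PD0325901. The 10 min libraries read 11.65, 11.65 and 11.64 and the DMSO libraries 11.62, 11.63 and 11.64, a difference of 0.016 (SE 0.114, limma adjusted p = 1.00). In that comparison 0 of 11971 genes (0%) passed in limma, and 245 had an unadjusted p below 0.05. The 40 min libraries read 11.31, 11.36 and 11.36 and the 70 min libraries 11.35, 11.38 and 11.35, all below the 10 min ones. The differences of -0.30 (SE 0.114, adjusted p = 0.141, background 3.58%) and -0.29 (SE 0.114, adjusted p = 0.128, background 6.09%) did not pass, and 3 libraries against 3 cannot give an exact p below 0.1. With these groups alone in the fit the adjusted p was 0.00533 and 0.00318. Egr1 differed by -0.91 between 70 and 10 min (adjusted p = 0.00134). No DMSO libraries at 40 or 70 min were analysed here, so time in culture and drug cannot be told apart.

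From the 40 and 70 min baselines, LPS raised Tnf by 3.97 and 4.68 at 0.5 and 1 h in PD0325901 (backgrounds 14.9% and 43.6%). These inductions differed from WT by 0.16 (95% interval -0.094 to 0.41, adjusted p = 0.763, background 1.49%) and -0.039 (95% interval -0.29 to 0.21, adjusted p = 0.956, background 3.58%). With the 10 min libraries as baseline the values were -0.15 and -0.33. DMSO libraries of the same experiment differed from unstimulated WT by 0.090 (SE 0.0986, adjusted p = 0.552, background 23.6%).

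Among the blocks with libraries at 2 h (Map3k8[D270A], Elk1-/-Elk4-/- and RSKi47), RSKi47 was the 1 under which Tnf was then higher than in WT. Without LPS the libraries read 11.65, 11.52, 11.54 and 11.59, a difference of 0.034 (SE 0.0900, limma adjusted p = 0.768, background 53%). At 0.5 h the 3 libraries read 15.46, 15.36 and 15.46, and the difference was 0.074 (SE 0.0986, adjusted p = 0.560, background 48.2%), or 0.47 against WT replicates 4 to 6 (adjusted p = 9.09e-08) and -0.32 against replicates 7 to 9 (adjusted p = 0.00118). At 1 h replicates 1 to 4 read 15.69, 16.32, 16.37 and 16.30, so that replicate 1 stood apart from the others. The difference was -0.093 (SE 0.0900, adjusted p = 0.393, background 52.8%) and 0.065 without replicate 1.

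At 2 h the RSKi47 libraries read 15.59, 15.68, 15.74 and 15.50, all above the highest WT library (15.29). The difference was 0.40 (95% interval 0.21 to 0.60, SE 0.0986, adjusted p = 0.000319, background 52.1%). From 1 to 2 h Tnf changed by -0.54 with RSKi47 and by -1.04 in WT, a difference of 0.50 (SE 0.134, adjusted p = 0.00485, background 14.9%), which was 0.35 without RSKi47 replicate 1 and then did not pass (adjusted p = 0.0784). It also did not pass under quantile normalization (0.35), with WT replicates 7 to 9 alone (0.42, with 1 WT library at 2 h that is assumed to vary like the other groups) or with only the groups compared in the fit. The induction at 2 h exceeded that of WT by 0.37 (SE 0.134, adjusted p = 0.0355, background 21%). That call was lost without WT replicate 6, RSKi47 replicate 2 or RSKi47 replicate 3 (highest adjusted p = 0.117). With the replicate as a block within each arm neither the difference of induction (0.31, adjusted p = 0.266) nor that of the step (0.43, adjusted p = 0.131) passed. Egr1 was higher than WT with RSKi47 at 1 h, by 1.01 (SE 0.161, adjusted p = 9.89e-08), and did not pass at the other times, with 0.22 (SE 0.161) without LPS, 0.13 (SE 0.177) at 0.5 h and -0.040 (SE 0.177) at 2 h. Among the fibroblast markers Pdgfra and Col3a1 stayed at or below -0.20 and 2.29 in every library, while Col1a1 and Col1a2 reached 9.03 and 7.28. The fibroblast markers had a summed level of 5.04 to 9.41 in RSKi47 libraries against 3.92 to 4.91 in WT, and the dendritic cell markers one of at least 12.00 against at most 11.96. Their part in the Tnf result was not tested.

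**Figure D2:**
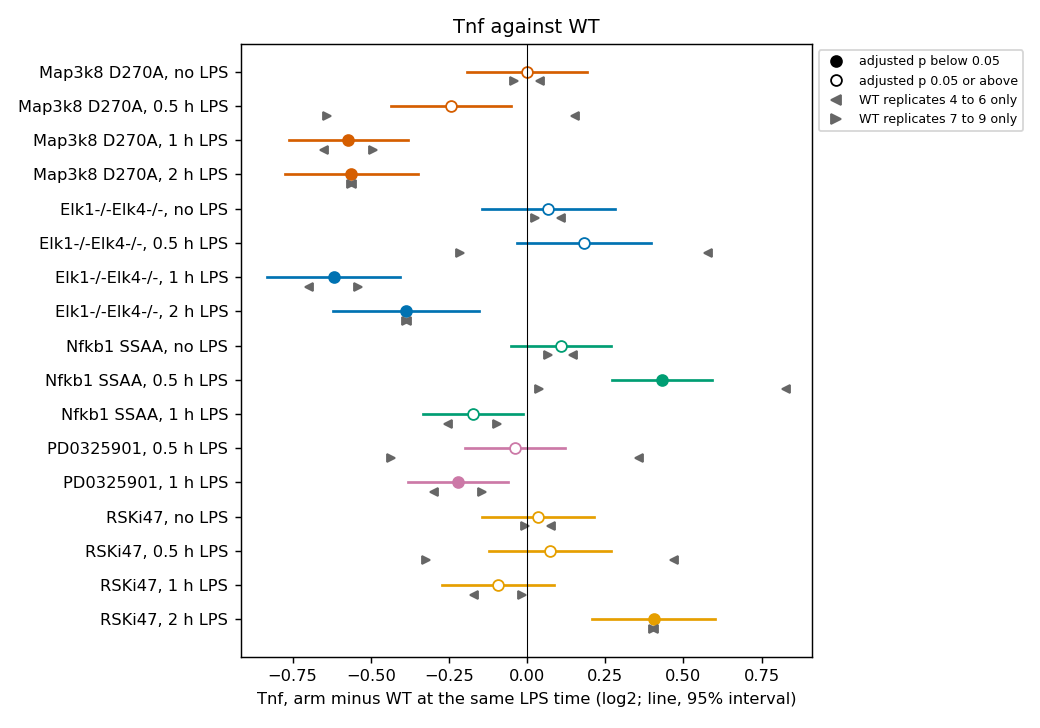
Tnf of each arm minus WT at the same LPS time (log2), with points for the limma estimate, lines for its 95% interval, filled where the adjusted p is below 0.05, and grey triangles for the estimate with 1 set of WT replicates and all libraries of the arm. The triangles stand apart at 0.5 h, where the Map3k8[D270A] estimate is 0.15 with one set and -0.64 with the other. At 1 h PD0325901 is at -0.30 with the first set and -0.14, no longer passing, with the second, and at 2 h the second set is 1 WT library.

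**Figure D3:**
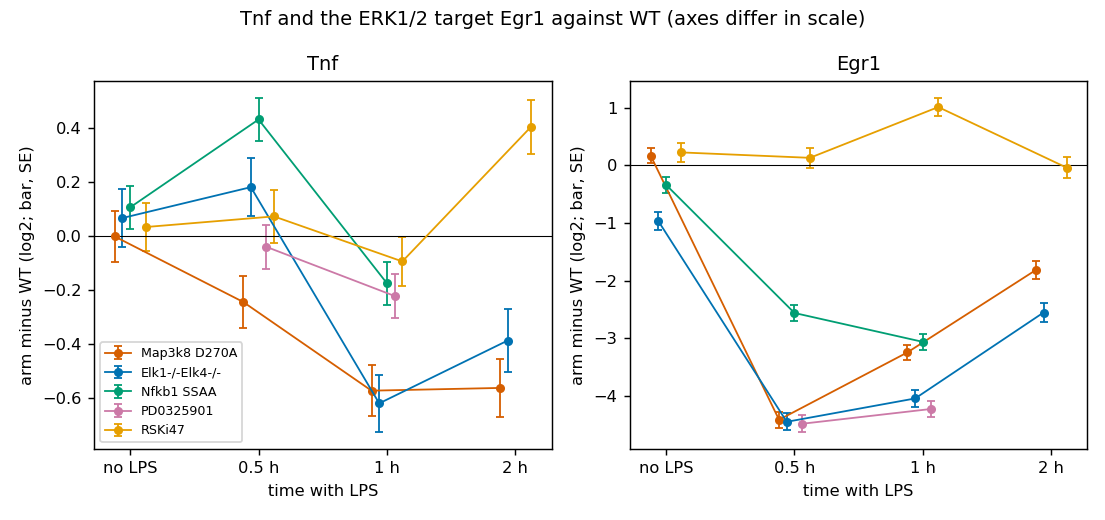
Difference from WT (log2, bars SE) of Tnf on the left and Egr1 on the right by time with LPS, 1 line for each arm, on axes of different scale. With PD0325901 at 1 h Egr1 differed by -4.22 and Tnf by -0.22, and with RSKi47 at 2 h Tnf differed by 0.40 and Egr1 by -0.040.

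The other genes of the pathway are described by 6 lists, each with its number of members past the test in limma at 1 h. Of the 9 neighbours of Tnf between Bag6 (52.1 kb away) and Ddx39b (39.7 kb), 8 were tested. In WT at 1 h Bag6, a chaperone gene, was higher by 0.20 (SE 0.0349, adjusted p = 3.56e-06) and Nfkbil1 changed by -0.21 (SE 0.0475, adjusted p = 0.000140), against backgrounds of 23.8% of all genes higher and 23% lower. Ltb, a TNF-family gene 3.06 kb away, was barely detected (3.20 and 3.23 without and with LPS), and Lta, 1.16 kb away, was too low to be tested. In Map3k8[D270A] cells at 1 h 0 of 8 passed in limma (all genes, 9.79%), with differences from -0.18 (Aif1) to -0.012 (Prrc2a), and 2 had an unadjusted p below 0.05. At 2 h 2 of 8 were lower (all genes, 13.1%), Aif1 by -0.20 (adjusted p = 0.0365) and Nfkbil1 by -0.14 (adjusted p = 0.0472). Aif1 was also lower without LPS (-0.26, adjusted p = 0.0304, all genes 1.44%). At 1 h 1 neighbour was higher and 5 lower in Elk1-/-Elk4-/- cells (all genes, 27.2% and 26.2%), and 5 were lower with PD0325901 (all genes, 19.3%).

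**Figure D4:**
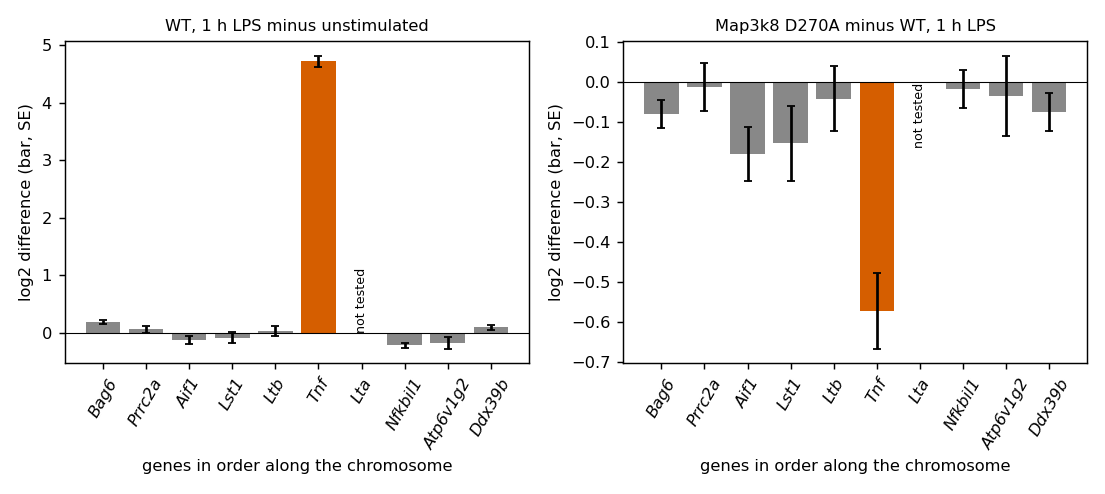
Log2 difference (bars, SE) of Tnf and its neighbours in their order along the chromosome, on the left for WT at 1 h of LPS minus unstimulated and on the right for Map3k8[D270A] minus WT at 1 h. Tnf stands at 4.72 on the left and -0.57 on the right, while the 8 tested neighbours lie between -0.21 and 0.20 and between -0.18 and -0.012.

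Genes that control decay and translation of Tnf mRNA moved in both directions. Of 18 tested, 10 were higher and 3 lower in WT at 1 h (all genes, 23.8% and 23%), with a median of 0.18 against 0.00 in size (0.000185) over all genes. Zfp36, whose product binds the AU-rich element and promotes decay, rose by 2.81 (SE 0.0927, adjusted p = 8.45e-33), Zc3h12a (the RNase Regnase-1) by 2.55 and Zfp36l1, a relative of Zfp36, by 1.35, while Zfp36l2 changed by -0.85. In Map3k8[D270A] cells at 1 h 4 passed, each of them lower, where 5.14% of all genes were called higher and 4.64% lower. Zfp36 differed by -0.96 (SE 0.0927, adjusted p = 9.46e-12), Zfp36l2 by -0.36 and Zc3h12a by -0.29. At 2 h 2 were higher and 8 lower, with Zc3h12a at -0.86, Mapkapk3, a kinase that acts on decay proteins, at -0.76 and Zfp36 at -0.40, where 14.6% of all genes were called higher and 13.1% lower. In Elk1-/-Elk4-/- cells at 1 h 4 were higher and 6 lower, with Rc3h1 (Roquin) at 0.44 and Zfp36l1 at -0.47, where 27.2% of all genes were called higher and 26.2% lower. With RSKi47 at 2 h 8 were higher and 5 lower, with Mknk2, a kinase of translation initiation, at 0.60 and Mapkapk3 at -0.78, where 27.5% of all genes were called higher and 24.6% lower. Against WT Zfp36 was also lower with Nfkb1[SS/AA] (-1.02) and PD0325901 (-0.59) at 1 h, and with RSKi47 at 2 h (-0.41, SE 0.102, adjusted p = 0.000437).

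Of 30 factors known to act at the Tnf promoter, 23 were higher and 2 lower in WT at 1 h, with a median of 0.35, where 23.8% of all genes were called higher and 23% lower. Egr1 rose by 3.41, Junb by 2.87 and Rel, an NF-κB subunit, by 2.63. Among them 1 was higher in Map3k8[D270A] cells (Ets1, 0.23) and 12 lower (all genes, 5.14% and 4.64%), with Egr1 at -3.24, the AP-1 subunit Fos at -1.16 and Cebpb at -1.01. At 2 h 3 were higher and 13 lower (all genes, 14.6% and 13.1%), with Cebpd at -1.65 and Jun at 0.52. In Elk1-/-Elk4-/- cells 4 were higher and 13 lower (all genes, 27.2% and 26.2%), and the lower ones include the deleted Elk1 (-3.07) and Elk4 (-2.28). In Nfkb1[SS/AA] libraries 3 were higher and 18 lower, where 20.5% of all genes were called higher and 21.9% lower. With PD0325901 2 were higher and 18 lower, where 16.4% of all genes were called higher and 19.3% lower. With RSKi47 at 2 h 7 were higher and 13 lower (all genes, 27.5% and 24.6%), with Ets2 at 0.70 and Cebpb at -1.20.

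Of 23 genes for signalling at the TNF receptors, 11 were higher and 5 lower in WT at 1 h and 7 did not pass, beside 23.8% of all genes higher and 23% lower. The inhibitors Tnfaip3 (A20) and Cflar rose by 3.88 and 2.71 and Birc3, a ubiquitin ligase of the receptor complex, by 1.61. With catalytically inactive TPL-2 1 of 23 was higher (Fadd, the death-domain adaptor, 0.35) and 2 lower (Tnip1, -0.32, and Traf2, -0.18), a share near the 9.79% of all genes called. At 2 h 4 were higher and 6 lower (all genes, 14.6% and 13.1%), with Tnip1 at -0.69. Of 14 tested genes for shedding and transport of TNF, 6 were higher and 1 lower in WT at 1 h (all genes, 23.8% and 23%). Rhbdf2 (iRhom2), which carries ADAM17 to the surface, rose by 1.13, Stx6 by 0.64 and Adam17 itself by 0.44. In Map3k8[D270A] cells at 1 h 3 were lower (all genes, 4.64%), with Rhbdf2 at -0.29 (SE 0.0851, adjusted p = 0.0200) and the membrane-fusion genes Stx6 at -0.18 and Vamp3 at -0.11. At 2 h 1 was higher (Frmd8, a partner of the iRhoms, 0.38) and 6 lower (all genes, 14.6% and 13.1%), with Rhbdf1 (iRhom1) at -0.72. Rhbdf1 also differed in Elk1-/-Elk4-/- cells at 1 h (-0.73) and 2 h (-1.05) and with RSKi47 at 2 h (-0.84).

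Among 12 tested ligands of the TNF superfamily 6 rose and 2 fell in WT at 1 h (all genes, 23.8% and 23%). Tnfsf9 (4-1BBL) rose by 5.31 and Tnfsf4 (OX40L) by 3.67. In Map3k8[D270A] cells at 1 h 2 were lower (all genes, 4.64%), with Tnfsf4 at -1.004 (SE 0.182) and Tnfsf14 (LIGHT) at -0.67 (SE 0.0870) and adjusted p of 7.42e-05 and 6.30e-08. Tnfsf4 was also lower at 1 h in the Elk1-/-Elk4-/- (-1.55), Nfkb1[SS/AA] (-2.16), PD0325901 (-1.08) and RSKi47 (-1.51) libraries.

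The genes most like Tnf over the 25 group means, among 817 tested genes whose means span at least 2, were Nfkbiz (Pearson r = 0.991), Nfkbia (0.987), Cxcl2 (0.983), Tnfaip3 (0.979), Pim1 (0.979) and Cxcl1 (0.978). The points share WT libraries and the split between LPS and no LPS, so these are descriptions. In Map3k8[D270A] cells at 1 h the chemokine gene Cxcl2 differed by -0.80 and the NF-κB inhibitor gene Nfkbia by -0.12, on either side of the -0.57 of Tnf.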

How the data were processed

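RNA from BMDMs was sequenced by the authors (single-end, strand-specific), aligned with STAR 2.5.1b and quantified per mm10 RefSeq gene with RSEM 1.2.29, versions per the submitters' processing notes, which also name DESeq2 1.10.1. The values deposited by the authors are normalized and on a log2 scale (-2.40 to 19.8). 1 value above 25 was treated as missing. The study gives a typical read yield, but counts were not used here, so depth per library is unknown.

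Group means were fitted with limma 3.58.1 in R 4.3.3 to genes at 10 or more on the linear scale in at least 4 of the 62 WT, Map3k8[D270A] and Elk1-/-Elk4-/- libraries (11884 genes), or at least 3 of all 119 (11971 genes) for the other arms, without a trend. Calls used Benjamini-Hochberg adjusted p below 0.05 over all tested genes, and a background is the percentage of tested genes called. 95% intervals are unadjusted. The fit was tested on simulated data with independent noise around each gene's WT mean at 1 h. Those data held no replicate sets, experiments or unequal spreads of groups, so the test does not cover these. Genes named are Tnf, the mutated genes and Egr1, the members of each list with a call and the largest change (up to 3 each way), all neighbours, and the 6 genes most correlated with Tnf. The gene, lists and tests were chosen with earlier results of these data known. Same-numbered replicates deviated together (every correlation over 0.1) in all 6 pairs of times in WT (lowest 0.164) and all 3 in Nfkb1[SS/AA] (0.145), in which the number is taken as a pairing within the arm, in 5 of 6 for RSKi47, 4 of 6 for Map3k8[D270A], 2 of 6 for Elk1-/-Elk4-/- and 0 of 10 for PD0325901. In WT libraries of the same number also fall in the same replicate set, so there the correlations cannot tell a pairing from the sets. Alternatives covered filters, trend, scaling, libraries in the fit, baselines, replicate blocks, replicates left out and permutation tests. 4 further ones (a block within each arm, the difference between the 2 replicate sets under each matching, and each WT set with all Map3k8[D270A] libraries) were chosen after seeing the data.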

Additional observations from a re-analysis of the deposited data

Results flagged for a closer look

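In 3 of the 20 groups of 4 to 10 libraries, 1 library of Tnf lay far from the rest by Dixon's ratio, where chance flags about 1 in 20. Map3k8[D270A] replicate 4 at 0.5 h was the highest of 6 at 15.47 (ratio 0.732 against a critical 0.625). RSKi47 replicate 1 at 1 h was the lowest of 4 at 15.69 (0.905 against 0.829), and this library also holds the 1 value above 25 that was treated as missing. Nfkb1[SS/AA] replicate 3 at 0.5 h was the lowest of 6 at 15.71 (0.875 against 0.625), in a group whose SD was 0.03.

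The induction of Tnf differed from WT by a test of the difference itself in Map3k8[D270A] cells at 1 h (-0.57, limma adjusted p = 0.00830) and 2 h (-0.56, adjusted p = 0.00359), in Elk1-/-Elk4-/- cells at 1 h (-0.69, adjusted p = 0.00576) and 2 h (-0.45, adjusted p = 0.0379) and with RSKi47 at 2 h (0.37, adjusted p = 0.0355). With RSKi47 the step from 1 to 2 h also differed, by 0.50 (adjusted p = 0.00485). The 1 h difference of Map3k8[D270A] did not pass under quantile normalization (-0.38, adjusted p = 0.237) or with WT replicates 7 to 9 and Map3k8[D270A] replicates 4 to 6 alone (-0.44, adjusted p = 0.0884). With the replicate as a block within each arm neither RSKi47 difference passed (0.31, adjusted p = 0.266, and 0.43, adjusted p = 0.131), and without 1 of the 4 Elk1-/-Elk4-/- replicates in turn the 2 h difference of those cells did not pass (highest adjusted p = 0.110), nor did the 1 h difference without replicate 4 (adjusted p = 0.0554). The Map3k8[D270A] effect at 0.5 h differed between the 2 replicate sets by -0.61 (adjusted p = 0.000162) with Map3k8[D270A] replicates 1 to 3 set against WT replicates 4 to 6 and 4 to 6 against 7 to 9, and by -0.97 (adjusted p = 1.00e-09) with the sets matched the other way. No label gives either matching. At that time the WT libraries moved by 0.79 between sets and the Map3k8[D270A] libraries by 0.18.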

How the results depend on the processing

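Of 1072 values for 63 results, 955 kept their direction and their side of the threshold, and of the other 117 values 51 turned direction, 34 lost a call and 32 gained one. No result with a call turned direction. The WT inductions, Map3k8[D270A] against WT at 1 h (-0.66 to -0.38) and 2 h (-0.63 to -0.45), Elk1-/-Elk4-/- against WT at 1 h (-0.70 to -0.45) and 2 h (-0.40 to -0.36) and RSKi47 against WT at 2 h (0.37 to 0.47) kept both under each alternative run with the adjusted p alone as the call. Where a call changed, the cause was not tested. Requiring a 2-fold change as well took the genes called higher from 2832 to 380 and lower from 2732 to 112 in WT at 1 h, and higher from 611 to 5 and lower from 552 to 29 in Map3k8[D270A] against WT at 1 h. Tnf keeps its WT inductions under that rule, but each call of an arm against WT is smaller than 2-fold and is lost. A difference of induction is written below as "rise". Depth per library is unknown, and arms of other experiments cannot be told apart from their experiment.

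Without a filter on low values the 2 h rise lost its call in Elk1-/-Elk4-/- (-0.45) and RSKi47 (0.37). With only the groups compared in the fit, Nfkb1[SS/AA] against WT gained a call at 0 h (0.11) and 1 h (-0.17) and for the 1 h rise (-0.28) and lost it at 0.5 h (0.43), and PD0325901 at 40 min (-0.30) and 70 min (-0.29) against 10 min gained one. With libraries centred to one median, Map3k8[D270A] at 0 h turned to 6.31e-05 and the 2 h rise of RSKi47 (0.34) lost its call. Under quantile normalization the 1 h rise of Map3k8[D270A] (-0.38), the 1 and 2 h rises of Elk1-/-Elk4-/- (-0.47 and -0.38) and PD0325901 at 1 h (-0.15) lost their calls. RSKi47 turned at 0 h (-0.0117), 0.5 h (-0.020) and 1 h (0.12), as did its rises at 0.5 h (-0.00847) and 1 h (0.14), the PD0325901 rise at 1 h (0.073), the Elk1-/-Elk4-/- step from 0.5 to 1 h (-0.035) and the difference of the Map3k8[D270A] step (-0.070).

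The WT sets were tried with Map3k8[D270A] replicates 1 to 3 beside WT 4 to 6 and 4 to 6 beside WT 7 to 9, the other Map3k8[D270A] libraries being left out of every such fit. At 2 h the second WT set is 1 library, assumed to vary like the other groups, so at 2 h it cannot show how far the sets differ. With the first sets, Map3k8[D270A] turned at 0 h (0.059), 0.5 h (0.063) and for the 0.5 h rise (0.00405), and PD0325901 at 0.5 h (0.36). Calls were gained for Elk1-/-Elk4-/- at 0 h (0.11), 0.5 h (0.58) and the 0.5 h rise (0.47), for Nfkb1[SS/AA] at 1 h (-0.25) and the rises at 0.5 h (0.68) and 1 h (-0.40), for the PD0325901 rise at 0.5 h (0.51), and for RSKi47 at 0.5 h (0.47), 1 h (-0.17) and the 0.5 h rise (0.39). With the second sets, Elk1-/-Elk4-/- turned at 0.5 h (-0.21) and for the 0.5 h rise (-0.24), RSKi47 at 0 h (-0.00696), 0.5 h (-0.32) and the 0.5 h rise (-0.32), the Nfkb1[SS/AA] rise at 0.5 h (-0.029), the PD0325901 rises at 0.5 h (-0.20) and 1 h (0.080), and the difference of the Map3k8[D270A] step (-0.13). Map3k8[D270A] at 0.5 h (-0.55) and PD0325901 at 0.5 h (-0.44) gained calls, and the 1 h rise of Map3k8[D270A] (-0.44), the 2 h rises of Elk1-/-Elk4-/- (-0.41) and RSKi47 (0.41), Nfkb1[SS/AA] at 0.5 h (0.036) and PD0325901 at 1 h (-0.14) lost theirs. With all Map3k8[D270A] libraries kept, WT replicates 4 to 6 turned Map3k8[D270A] at 0 h (0.040), 0.5 h (0.15) and for the 0.5 h rise (0.11), and WT replicates 7 to 9 gave calls at 0.5 h (-0.64) and for the 0.5 h rise (-0.60) and turned the difference of the step (-0.070).

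With the replicate block, the inductions and time steps with LPS within an arm kept their calls, and PD0325901 at 40 min (-0.30) and 70 min (-0.29) against 10 min gained one. Between WT and another arm the libraries share only a number (0 of 7 group pairs deviated together, median correlation -0.0627). There the block gave 0.022 at 0 h and 0.24 at 0.5 h for Map3k8[D270A], both turned, 0.37 at 0.5 h for PD0325901, turned, and calls for Nfkb1[SS/AA] at 0 h (0.19), 1 h (-0.25) and the 1 h rise (-0.28). With the block within each arm the difference of the Map3k8[D270A] step was -0.054, and the 2 h rise of RSKi47 (0.31) and the difference of its step (0.43) lost their calls. Elk1-/-Elk4-/- and RSKi47 share only number 4 with WT and had no fit paired by number against it. Averaging PD0325901 replicates in pairs lost the 1 h call (-0.22), the 10 min baseline turned the 0.5 h rise of PD0325901 (-0.15), and exact permutation tests gave calls for Nfkb1[SS/AA] at 0 h (0.11, p = 0.00649) and 1 h (-0.17, p = 0.0152).

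Leaving out 1 replicate at a time gave -0.74 to -0.63 for the 1 h rise and -0.47 to -0.42 for the 2 h rise of Elk1-/-Elk4-/-, 0.092 to 0.29 for Elk1-/-Elk4-/- at 0.5 h, -0.011 to 0.012 for Map3k8[D270A] at 0 h, -0.026 to 0.050 for its step, -0.20 to -0.15 for Nfkb1[SS/AA] at 1 h, -0.13 to 0.065 and -0.25 to -0.20 for PD0325901 at 0.5 and 1 h, -0.016 to 0.18 and -0.16 to 0.065 for RSKi47 at 0.5 and 1 h, and -0.043 to 0.13, -0.20 to 0.056 and 0.32 to 0.42 for its rises at 0.5, 1 and 2 h.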
